A study of Arabidopsis thaliana with 9 samples.

Results

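Copper amine oxidase transcripts were examined in seedlings of 3 genotypes of Arabidopsis thaliana, ecotype Col-0, from which the vegetative part was taken. The family was listed as 9 loci, of which 8 had a row among the 20777 loci of the expression table: AT1G31670, AT1G31680, AT1G31690, AT1G31710, AT1G62810 (CuAO1), AT2G42490, AT3G43670 and AT4G14940 (AO1). AT4G12290 was not analysed here. AT1G31680 had no entry in the RefSeq gene table used for names, so its place in the family rests on the list alone. Whether AT1G31680 and AT1G31690 are separate genes was not tested, so their rows may reflect the same gene. The family was chosen by its measured difference between 35S::JAW and wild type: AT1G31680 and AT1G31690 had the 5th and 6th lowest of all 20777 differences in that comparison. Values of the 8 genes in that comparison are therefore a description. Calls of them there are counted below beside all loci, but are not read as a test of the family.

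Copper amine oxidases are enzymes with a copper ion and a topaquinone cofactor, which is made from a tyrosine of the protein itself. They oxidise the primary amino groups of putrescine and related amines, and release an aminoaldehyde, ammonia and hydrogen peroxide. In plants they act in the cell wall space or in peroxisomes. Their peroxide is known for roles in wall stiffening, xylem differentiation and stress responses.

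The genotypes were 35S::JAW, 35S::GA20OX and wild type, with 3 biological replicates and 1 Affymetrix ATH1 array each. JAW is the locus of the microRNA miR319a, which directs cleavage of transcripts of CIN-type TCP growth regulators. GA20OX is a gibberellin 20-oxidase, an enzyme of gibberellin synthesis. Both transgenes carry the viral 35S promoter, which is active in most tissues, and the number of independent transgenic lines is not given in the sources used here. All seedlings were at growth stage 1.03 on MS medium at 22 °C, in days of 16 h light and 8 h dark. The values are log2 expression values made by RMA, which equalises the distributions of the arrays.

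The labels could be checked on the arrays. The 5 TCP genes cleaved by miR319 had log2 differences of -3.43 to -1.83 between 35S::JAW and wild type, and GA20OX1 was higher in 35S::GA20OX by 6.90 ± 0.09 (SE). Array medians lay between 6.35 and 6.41, and lower quartiles between 4.28 and 4.42. The leaf carbonic anhydrase gene CA1 averaged 13.7 in 35S::JAW, 13.65 in 35S::GA20OX and 13.68 in wild type. Of 11 root markers, 10 had genotype means between 3.46 and 5.23, and none passed the test in either line. PYK10, a beta-glucosidase of endoplasmic reticulum bodies that seedling shoots also contain, was the exception, with 10.83 in 35S::JAW, 10.87 in 35S::GA20OX and 11.05 in wild type.

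The clearest values of the family were those of AT1G31680 and AT1G31690, whose codes are adjacent. AT1G31680 had log2 values of 5.37, 5.23 and 5.35 in 35S::JAW, against 8.50, 8.19 and 8.34 in wild type. Its values in 35S::GA20OX were 8.65, 8.70 and 8.50. Each 35S::JAW array was thus far below all 6 other arrays, while the other genotypes overlapped only at 8.50. The log2 difference of 35S::JAW from wild type was -3.03 ± 0.09 (SE), with a 95% interval from -3.23 to -2.83, which is a level 8.16-fold lower. In samples of the vegetative part of seedlings, fewer cells that express a gene and less transcript in each cell cannot be told apart.

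AT1G31690 had log2 values of 5.92, 6.46 and 6.49 in 35S::JAW, against 9.28, 9.13 and 9.44 in wild type. In 35S::GA20OX it had 9.39, 9.42 and 9.39. The 35S::JAW arrays again lay far below the others, and replicate 1 of that line stood lowest. The difference of 35S::JAW from wild type was -2.99 ± 0.14 (SE), a level 7.96-fold lower, and it was -2.81 without 35S::JAW replicate 1. On that replicate the deviation from the genotype mean was -0.371 for AT1G31690 and 0.055 for AT1G31680.

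AT3G43670, a locus on chromosome 3, was the other member with every 35S::JAW array below every wild-type array. Its log2 values were 7.09, 7.06 and 6.87 in 35S::JAW, against 7.76, 7.44 and 7.61 in wild type. In 35S::GA20OX they were 7.59, 7.83 and 7.36, which spans the wild-type range on both sides. The difference of 35S::JAW from wild type was -0.59 ± 0.12 (SE), with a 95% interval from -0.86 to -0.33. This is a level 1.51-fold lower, a far smaller change than at AT1G31680 and AT1G31690.

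**Figure D1:**
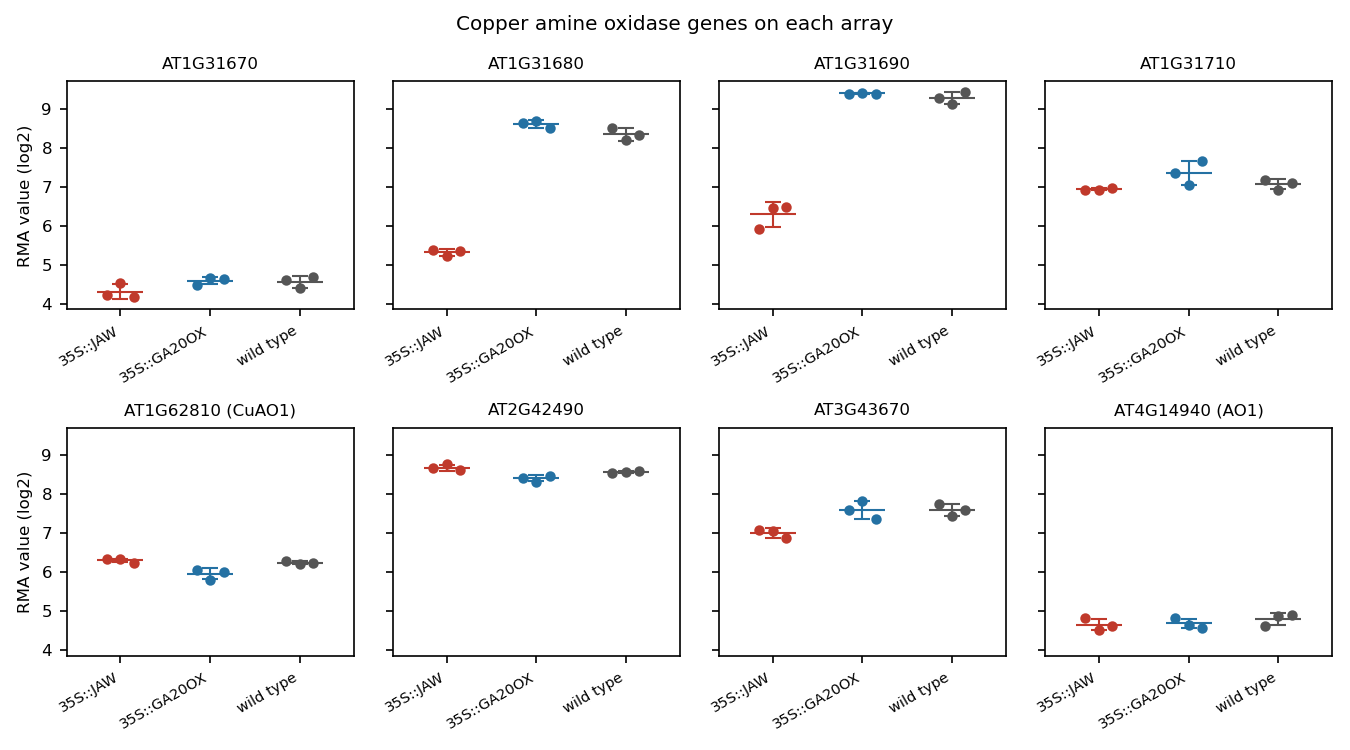
RMA log2 values (vertical axis) of the 8 copper amine oxidase genes in the 3 genotypes (horizontal axis), with a point for each array and a bar for the mean ± SD (n = 3). AT1G31680 and AT1G31690 lie at 5.23 to 6.49 in 35S::JAW and above 8 on all other arrays, while the other 6 genes keep within 0.95 over all 9 arrays.

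The outer loci of the tandem group did not share this pattern. AT1G31670 had 4.24, 4.52 and 4.17 in 35S::JAW, against 4.61, 4.40 and 4.69 in wild type. It had 4.49, 4.66 and 4.63 in 35S::GA20OX. These values overlap between genotypes, and they lie close to the lower quartile of the arrays, where RMA compresses differences. The difference of 35S::JAW from wild type was -0.26 ± 0.10 (SE). AT1G31710 had 6.93, 6.93 and 6.97 in 35S::JAW, against 7.18, 6.92 and 7.11 in wild type. It had 7.36, 7.05 and 7.66 in 35S::GA20OX, an SD of 0.306 within that line. Its difference of 35S::JAW from wild type was -0.13 ± 0.13 (SE), with a 95% interval from -0.41 to 0.16.

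The remaining members differed little between 35S::JAW and wild type. CuAO1 had 6.33, 6.33 and 6.25 in 35S::JAW, against 6.28, 6.21 and 6.24 in wild type, a difference of 0.06 ± 0.08 (SE). AT2G42490 had 8.68, 8.77 and 8.62 in 35S::JAW, against 8.55, 8.57 and 8.59 in wild type. Its difference was 0.12 ± 0.07 (SE), and the 35S::JAW arrays lay just above the wild-type ones. AO1, which is known for expression in developing xylem and the root cap, had 4.82, 4.53 and 4.63 in 35S::JAW, against 4.64, 4.87 and 4.90 in wild type. The AO1 difference was -0.14 ± 0.10 (SE), and its arrays overlapped.

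Over the 8 measured members, the median log2 difference of 35S::JAW from wild type was -0.20, and the median over all loci was 0.01. By limma's test with an adjusted p under 0.05 over all loci, 3 members were called lower and 0 higher, where 3.98% of all loci were called lower and 4.34% higher. By the arrays alone, 3 members lay wholly below wild type, as did 11.4% of all loci, and 1 lay wholly above, as did 14.2%. The 3 lower members are the same by both counts: AT1G31680, AT1G31690 and AT3G43670. Nothing is read from these counts, since this comparison chose the family.

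Xylem markers were also measured beside these genes. All 7 had negative log2 differences between 35S::JAW and wild type, with a median of -0.39, although 0 of 7 passed the test. The mean log2 value of the 7 was 5.57 to 6.02 over the 35S::JAW arrays, 6.33 to 6.42 over the 35S::GA20OX arrays and 6.13 to 6.18 over the wild-type arrays. The protease genes XCP1 and XCP2, which act in xylem vessels, had differences of -0.43 ± 0.12 (SE) and -0.30 ± 0.10 (SE). Of the 4 measured guard cell markers 0 passed the test. KAT1 had -0.46 ± 0.13 (SE) with every 35S::JAW array below wild type, and MYB60 had 0.34 ± 0.12 (SE) with every 35S::JAW array above it. The part of xylem or guard cell content in the values of the amine oxidases was not tested.

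The values of 35S::GA20OX did not enter the choice of the family, but their comparison with wild type shares its control arrays with the one that did. None of the 8 members passed limma's test here, where 0.164% of all loci were called higher and 0.168% lower. At an unadjusted p under 0.05 there were 4 of 8 members, as against 10.5% of all loci. The median difference of the members was 0.01, and that of all loci 0.0043. The largest differences in either direction were 0.28 in AT1G31710 and -0.28 in CuAO1, so no member came near the size seen at AT1G31680 in 35S::JAW.

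CuAO1, an enzyme secreted to the cell wall space that oxidises putrescine and spermidine, had 6.07, 5.81 and 6.01 in 35S::GA20OX, against 6.28, 6.21 and 6.24 in wild type. The genotypes did not overlap, and the difference was -0.28 ± 0.08 (SE; limma adjusted p = 0.211). AT2G42490 had 8.42, 8.33 and 8.48 in 35S::GA20OX, against 8.55, 8.57 and 8.59 in wild type. Here too the arrays did not overlap, with a difference of -0.16 ± 0.07 (SE; limma adjusted p = 0.441). These were the 2 members wholly below wild type, and 8.3% of all loci were placed likewise.

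AT1G31680 differed between 35S::GA20OX and wild type by 0.27 ± 0.09 (SE; limma adjusted p = 0.302), and AT1G31690 by 0.11 ± 0.14 (adjusted p = 0.821 in the same limma fit). AT1G31710 differed by 0.28 ± 0.13 (adjusted p = 0.476 in limma). The limma 95% intervals of the 8 members reached from -0.45, for CuAO1, to 0.57, for AT1G31710. AT1G31670 differed by 0.03 ± 0.10 (SE), with an adjusted p of 0.948. For AT3G43670 the difference was -0.01 ± 0.12 (SE), with an adjusted p of 0.983. AO1 differed by -0.11 ± 0.10 (SE), with an adjusted p of 0.753. The 7 xylem markers all had positive differences in 35S::GA20OX, with a median of 0.28 and 0 past the test. Of the 4 measured guard cell markers 0 passed the test there, and their differences went both ways, with a median of -0.19. The lowest was MYB60, with -0.58 ± 0.12 (SE; limma adjusted p = 0.0993) and every 35S::GA20OX array below wild type. The highest was KAT1, with 0.19 ± 0.13 (SE) and overlapping arrays.

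**Figure D2:**
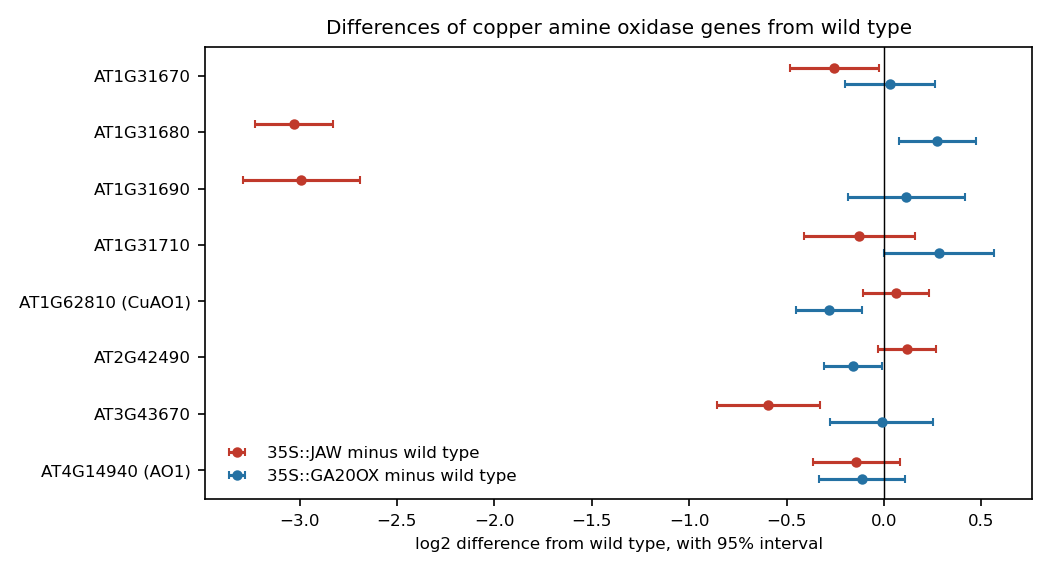
Log2 differences from wild type (horizontal axis, with 95% intervals from limma) of the 8 copper amine oxidase genes (vertical axis) in 35S::JAW and 35S::GA20OX, n = 3 arrays per genotype. In 35S::JAW, AT1G31680 and AT1G31690 stand at -3.03 and -2.99, and in 35S::GA20OX all 8 genes lie between -0.28 and 0.28.

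Set directly against each other, the lines did not differ in 1 direction over all members. The log2 difference of 35S::JAW from 35S::GA20OX was -3.30 ± 0.09 (SE) for AT1G31680, -3.11 ± 0.14 for AT1G31690, -0.58 ± 0.12 for AT3G43670 and -0.41 ± 0.13 for AT1G31710. It was 0.34 ± 0.08 for CuAO1 and 0.28 ± 0.07 for AT2G42490. For these 6 genes the arrays of the lines did not overlap, but the share of all loci placed likewise was not counted. Nothing is read from that number. AT1G31670, with -0.29 ± 0.10, and AO1, with -0.03 ± 0.10, overlapped. The order of the levels was 35S::GA20OX, wild type and 35S::JAW from high to low for the 4 tandem loci, and the reverse for CuAO1 and AT2G42490. AT3G43670 and AO1 were highest in wild type and lowest in 35S::JAW. Within these orders, 35S::GA20OX and wild type differed by at most 0.285 for any member, and none of these differences passed the test. The members' values in this direct comparison share the 35S::JAW arrays with the choice of the family and are given without a test. Of the 7 xylem markers, limma called 5 lower and 0 higher in 35S::JAW against 35S::GA20OX, with a median difference of -0.72. Of the 4 guard cell markers, 1 was called lower and 2 higher. Over all 20777 loci, 1355 were called lower and 1394 higher in this comparison.

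Replicates of a genotype scattered more for some members than for others. The pooled SD within genotypes was 0.206 for AT1G31690, 0.193 for AT1G31710 and 0.178 for AT3G43670. It was 0.118 for AT1G31680, 0.0879 for CuAO1 and 0.0645 for AT2G42490, and the median over all loci was 0.103. The range over all 9 arrays was 3.52 for AT1G31690 and 3.48 for AT1G31680, and between 0.372 (AO1) and 0.953 (AT3G43670) for the other 6.

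Differences as large as those of AT1G31680 and AT1G31690 were not seen at the measured loci around them. AT1G31670, AT1G31690 and AT1G31710 directly follow each other in the RefSeq gene order, and the code of AT1G31680 places it between AT1G31670 and AT1G31690. Of 30 other measured loci with codes from AT1G31500 to AT1G31900, 0 were called lower in 35S::JAW against wild type and 2 were called higher. This is set beside 3.98% and 4.34% of all loci, and the differences of the 30 lay between -0.26 and 0.96. By the arrays alone, 8 of the 30 (26.7%) lay wholly below wild type in 35S::JAW, set beside 11.4% of all loci, and 3 lay wholly above, set beside 14.2%. The nearest locus before the group, AT1G31660, had a log2 difference of -0.26 ± 0.08 (SE; limma adjusted p = 0.0869), and the nearest after it, AT1G31720, had -0.01 ± 0.11 (limma adjusted p = 0.978). The 2 loci called against wild type were AT1G31550, which rose by 0.96 ± 0.08 (limma adjusted p = 2.57e-05), and the cytokinin exporter gene ABCG14 (AT1G31770), which rose by 0.44 ± 0.11 (limma adjusted p = 0.0262). The call of ABCG14 was lost without wild type replicate 1 or 3 and without 35S::JAW replicate 1 or 2, with adjusted p up to 0.1. In 35S::GA20OX none of the 30 was called against wild type, where 0.164% of all loci were called higher and 0.168% lower. The differences of the 30 there lay between -0.10 and 0.28. In 35S::JAW set against 35S::GA20OX, AT1G31660 was called lower, with -0.34 ± 0.08 (SE; limma adjusted p = 0.0176). AT1G31790 was also called lower there, with -0.35 ± 0.09 (limma adjusted p = 0.0218). AT1G31550 was called higher, with 0.84 ± 0.08 (limma adjusted p = 5.26e-05). Over all 20777 loci, 1355 were called lower and 1394 higher there. Whether probes of one tandem locus also bind transcripts of another was not tested, so the separate values of AT1G31680 and AT1G31690 are uncertain to that extent.

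**Figure D3:**
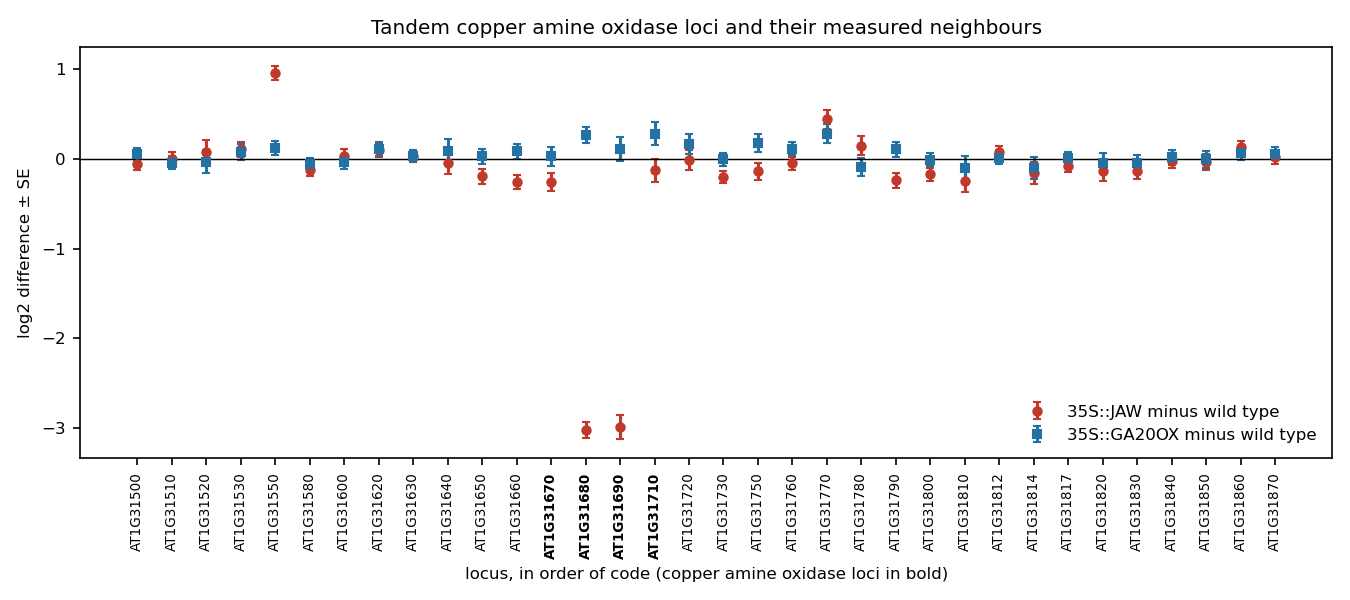
Log2 difference from wild type ± SE (vertical axis) of the tandem copper amine oxidase loci and 30 measured neighbours, in order of locus code (horizontal axis), for 35S::JAW and 35S::GA20OX, n = 3 arrays per genotype. Only AT1G31680 and AT1G31690 lie near -3, and the next lowest values in the window are -0.26.

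The loci closest in pattern to this pair were sought by the root mean square difference of log2 values over the 9 arrays, each locus centred on its own mean. The closest to AT1G31690 were the TCP gene TCP4 (0.143), AT1G51090 (0.169), AT1G31680 (0.213), TCP2 (0.259) and TCP3 (0.282). The closest to AT1G31680 were TCP2 (0.21), AT1G31690 (0.213), TCP4 (0.216), TCP3 (0.217) and ESP (0.318), which encodes a specifier protein of glucosinolate breakdown. For scale, the root mean square deviation of AT1G31690 from its own mean was 1.45, and that of AT1G31680 was 1.5. TCP4, TCP2 and TCP3 are targets of the miR319 that the 35S::JAW line overproduces. All 9 arrays share 3 genotypes, so this measure mostly ranks loci by the size of their 35S::JAW difference, which was -2.92 for TCP4, -3.43 for TCP2 and -3.23 for TCP3.

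**Figure D4:**
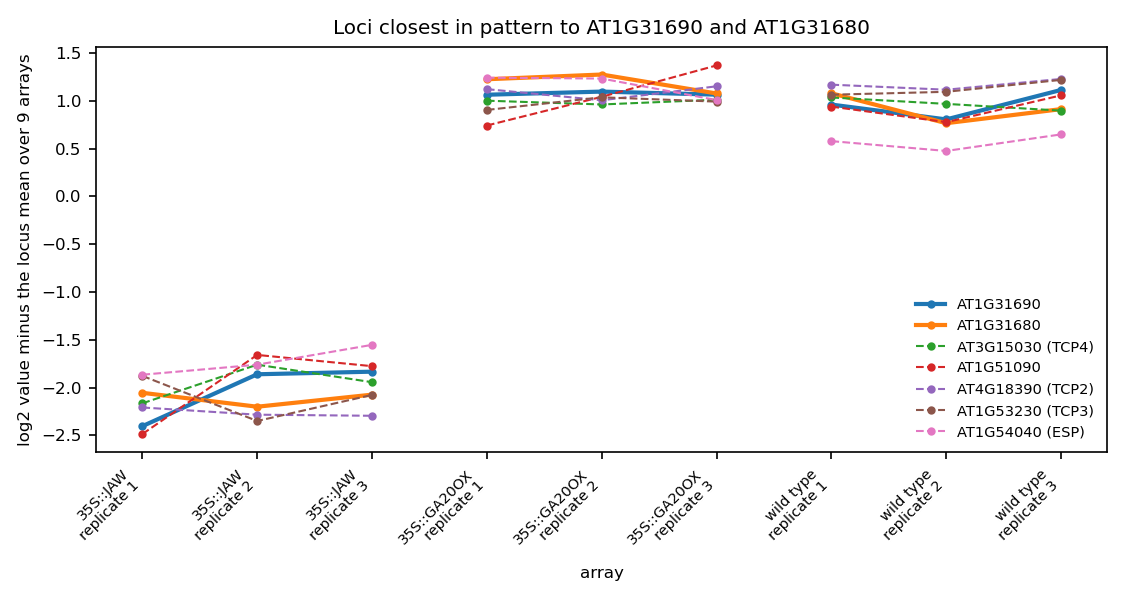
Log2 value minus the locus mean over 9 arrays (vertical axis) on each array (horizontal axis) for AT1G31690, AT1G31680 and the 5 other loci closest to them. Lines join arrays of a genotype for the eye only, and all 7 loci are below their mean on the 35S::JAW arrays and above it on the other 6.

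The other genes of polyamine and copper metabolism were followed as lists drawn up from general knowledge, with earlier results of these data known. Of 56 listed genes 51 were measured. In 35S::JAW, 2 of the 51 rose and 4 fell, which is 3.92% and 7.84%, set beside 4.34% and 3.98% of all loci. In 35S::GA20OX none of the 51 was called by limma, where 0.164% of all loci were called higher and 0.168% lower. At an unadjusted p under 0.05 there were 4 of the 51, or 7.84%, set beside 10.5% of all loci.

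Among 12 genes of polyamine synthesis, 2 of the 4 genes for S-adenosylmethionine decarboxylase showed the largest differences in 35S::JAW. SAMDC2 (AT5G15950) had log2 values of 7.08, 6.84 and 7.02 in 35S::JAW, against 7.79, 7.84 and 7.86 in wild type. It fell by 0.85 ± 0.08 (SE; limma adjusted p = 4.81e-05), without overlap of the arrays. The related gene SAMDC3 (AT3G25570) had 6.51, 6.29 and 6.72 in 35S::JAW, against 7.60, 7.48 and 7.37 in wild type. It fell by 0.98 ± 0.10 (SE; limma adjusted p = 0.000167), to a level 1.97-fold lower. In 35S::GA20OX the differences were -0.01 ± 0.08 for SAMDC2 and -0.21 ± 0.10 for SAMDC3, and neither passed. The other genes for the same enzyme, SAMDC (AT3G02470) and BUD2 (AT5G18930), had differences of 0.01 ± 0.07 and -0.04 ± 0.07 in 35S::JAW and did not pass.

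SPDS1 and SPDS2 encode spermidine synthases, which use the product of that decarboxylase to turn putrescine into spermidine, and they changed in opposite directions in 35S::JAW. SPDS2 (AT1G70310) had 11.02, 10.99 and 11.06 in 35S::JAW, against 10.59, 10.75 and 10.63 in wild type, and rose by 0.37 ± 0.07 (SE; limma adjusted p = 0.00836). SPDS1 (AT1G23820) had 9.27, 9.46 and 9.39 in 35S::JAW, against 9.65, 9.59 and 9.72 in wild type, and fell by 0.28 ± 0.07 (SE; limma adjusted p = 0.0271). The SPDS1 call was lost without wild type replicate 1 or 3 and without 35S::JAW replicate 1 or 3, with adjusted p up to 0.111. The other 8 genes of the list did not pass. Among them SPDS3 (AT5G53120), listed as the spermine synthase gene SPMS, had -0.14 ± 0.08. The arginine decarboxylase genes ADC1 and ADC2, also among them, had differences of -0.20 and -0.12.

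Polyamines are also oxidised by FAD-dependent polyamine oxidases. Of 5 such genes PAO4 (AT1G65840), which encodes a peroxisomal enzyme, was called in 35S::JAW. It had 7.58, 7.60 and 7.60 in 35S::JAW, against 7.93, 7.81 and 8.04 in wild type, and fell by 0.33 ± 0.08 (SE; limma adjusted p = 0.0258). That call was lost without wild type replicate 1 or 3 and without any 1 of the 35S::JAW replicates, with adjusted p up to 0.11. None of 5 genes of aminoaldehyde and GABA metabolism passed, where GAD, a glutamate decarboxylase gene, had the largest difference in 35S::JAW (-0.22 ± 0.11). Of 8 genes of polyamine transport and conjugation 0 passed, with PUT5 at 0.26 ± 0.11 and SHT at 0.20 ± 0.12.

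**Figure D5:**
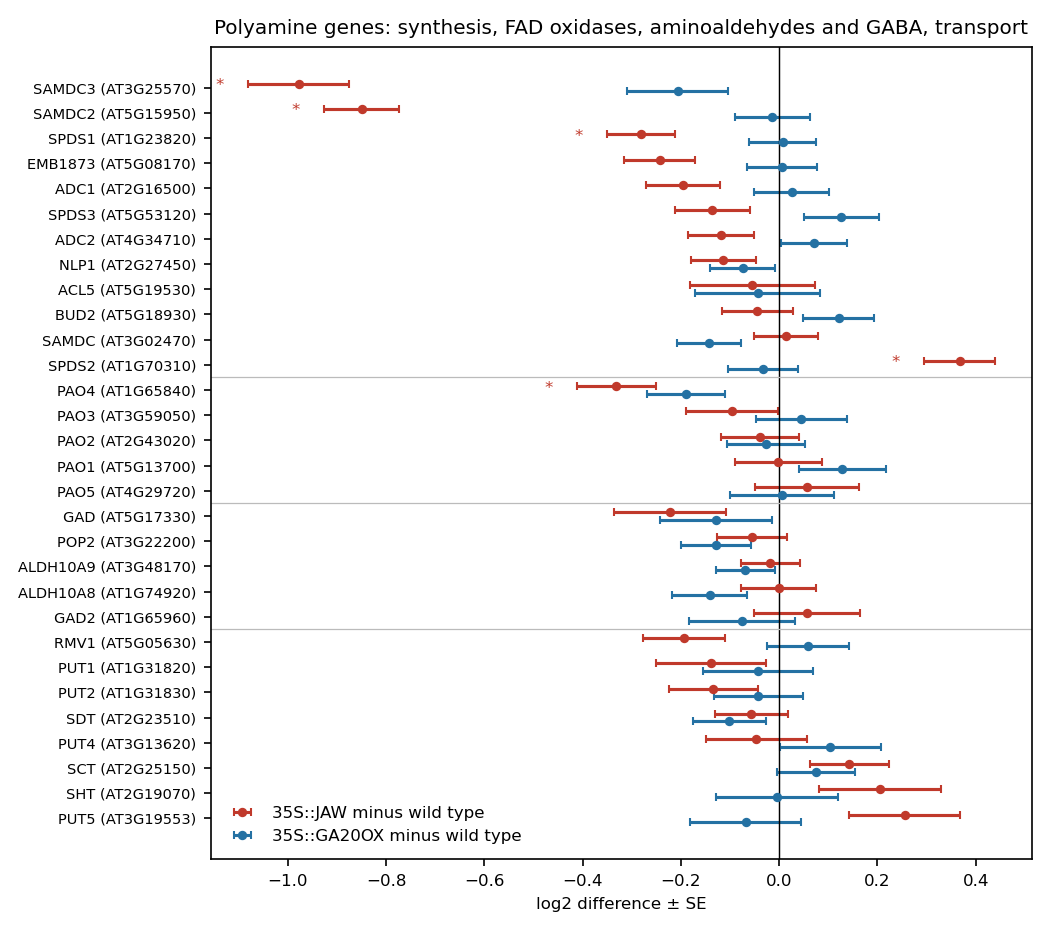
Log2 difference from wild type ± SE (horizontal axis) of 30 polyamine genes (vertical axis; lines part synthesis, FAD-dependent oxidases, aminoaldehyde and GABA metabolism, and transport and conjugation) in 35S::JAW and 35S::GA20OX, n = 3 arrays per genotype. Asterisks mark a limma adjusted p under 0.05, and these are SAMDC3, SAMDC2, SPDS1, SPDS2 and PAO4 in 35S::JAW.

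Of 12 genes of copper uptake and delivery, the plasma membrane copper transporter gene COPT1 (AT5G59030) was called in 35S::JAW. It had 10.29, 10.22 and 10.23 in 35S::JAW, against 9.90, 9.92 and 9.81 in wild type, and rose by 0.37 ± 0.06 (SE; limma adjusted p = 0.00409). SPL7, the regulator of the copper deficiency response, had -0.14 ± 0.08, and its known target COPT2 had -0.01 ± 0.07. FRO3, a ferric reductase gene, had -0.31 ± 0.23. In 35S::GA20OX the largest difference of this list was that of FRO3, with -0.86 ± 0.23 (SE; limma adjusted p = 0.207) and no overlap of the arrays, and COPT2 followed with 0.23 ± 0.07 (limma adjusted p = 0.262). None of 9 genes of other copper proteins and FSD1 passed in either line. In 35S::JAW the ends of that list were the laccase gene IRX12 (-0.24 ± 0.11) and the ascorbate oxidase gene AAO (0.22 ± 0.07).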

How the data were processed

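RNA of 9 seedling samples was hybridised to ATH1 arrays, and the authors deposited log2 values made by RMA, per the submitters' processing notes. The sources used here give no version, chip definition or genome build. Each locus has 1 row, without detection calls or scan dates, so neither background nor batch could be tested. RefSeq (TAIR10.1) supplied names for 20508 of 20777 loci.

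Values were fitted in R 4.3.3 with limma 3.58.1 (lmFit with 1 mean per genotype over 9 arrays, then eBayes, with 5.04 prior and 6 residual degrees of freedom). Two-sided p-values were adjusted by Benjamini-Hochberg over all loci, and a locus was called at an adjusted p under 0.05. No locus was left out. The fit was tested on simulated data. The number of arrays limits the precision (median SE 0.083).

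The members and lists were chosen with earlier results of these data known. Named were all members, called genes of each list (at most 4) or its largest differences (at most 2), neighbouring loci that were nearest or called, and the 5 closest patterns, with SPL7, COPT2 in 35S::JAW, the ADC genes, FRO3 in 35S::JAW, SAMDC, BUD2, SPDS3, CA1, PYK10, KAT1, MYB60 and the XCP genes added after their values were seen. Alternatives were a fit to the 6 arrays compared, a replicate block, array weights, a robust prior with intensity trend, cyclic loess, median centring, a filter on the dimmest 40% of loci, and leaving each array out. Protein, promoter and probe sequences were not analysed here.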

Additional observations from a re-analysis of the deposited data

How the results depend on the processing

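In 35S::JAW, the comparison that chose the family, the count of members called was 3 as reported. It became 4 with array weights and without 35S::JAW replicate 2, where AT1G31670 joined with differences of -0.33 and -0.36. Nothing is read from these counts, since the choice of the family fixed them in part. In 35S::GA20OX the count of members was 0 under every alternative. There the sign of 2 near-zero differences turned with single arrays: AT1G31670 ranged from -0.0521 to 0.0918 (-0.0521 when wild type replicate 2 was left out and -0.00179 when 35S::GA20OX replicate 2 was). AT3G43670 ranged from -0.129 to 0.105 (0.0693 when wild type replicate 1 was left out and 0.105 when 35S::GA20OX replicate 3 was). AT1G31670 and AO1 are among the dimmest 40% of loci, so that filter gave no value for them, and their low signal limits what differences could be seen. The polyamine and copper genes called in 35S::JAW numbered 4 to 8 over the alternatives, with 6 reported, and 0 in 35S::GA20OX throughout. The call of SPDS1 also ended with the 6 arrays compared (adjusted p = 0.0582 in limma). Deviations from the genotype means correlated between same-numbered arrays with r from -0.102 to 0.251, positive in 8 of 9 pairs and above 0.1 in 4. In the main fit the numbers were not taken as pairing. An array correlated best with its own number in 9 of 18 cases. With the replicate number as a block, 3 members were called in 35S::JAW and 0 in 35S::GA20OX, and no other member or pathway call changed. Over all loci that fit called 74 in 35S::GA20OX, where 69 were reported, and 1811 in 35S::JAW, where 1729 were reported. The count of all loci in 35S::GA20OX was 108 without the dimmest loci and 205 with a robust prior and intensity trend, and it ranged from 22 to 79 with 1 array left out. In 35S::JAW it ranged from 1074 to 1682 with 1 array left out, both lowest counts being those without wild type replicate 3. The cause was not tested.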
